A study of Mus musculus with 6 samples.

Results

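Collagens I, III and V form the banded fibrils that give connective tissue its tensile strength. The 6 genes described here encode their chains: Col1a1 and Col1a2 (collagen I), Col3a1 (collagen III), and Col5a1, Col5a2 and Col5a3 (collagen V). They were taken by symbol from a table of 54532 gene identifiers, and all 6 were found. RNA was sequenced from the fetal liver of CD-1 mice carrying Sm22-Cre/ROSA26RYFP, in which Cre driven by the Sm22 promoter turns on eYFP, and eYFP-positive cells were sorted after digestion with collagenase IV and Dispase. There were 3 libraries of embryonic day 18 (E18) and 3 of embryonic day 16 (E16), lettered A, B and C on each day and all of the same strain, genotype and tissue. Whether a library holds 1 litter, 1 fetus or a pool is not given in the labels, so p-values describe the spread between these libraries, some of which may be technical.

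Each chain winds with partners into a triple helix built on a repeat of triplets that each hold a glycine, and the trimers assemble outside the cell into fibrils. Collagen I is mostly a mixed trimer of α1 and α2 chains, with α1 in excess, and collagen III is made of its α1 chain alone. Collagen V sits within collagen I fibrils, where it starts fibril assembly and limits fibril width. Its usual trimer combines the products of Col5a1 and Col5a2, and a rarer one also holds that of Col5a3. In liver these chains are made by portal fibroblasts, stellate cells, vascular smooth muscle and the cells of the capsule, and they are best known there as the main proteins of scar tissue.

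The repeat can be read in the coding sequence. The first 54 bases of each chain's longest uninterrupted repeat are shown because the repeat defines the family and because the chains must differ in it for reads to be told apart. Capitals mark the glycine codon that opens each triplet (GENCODE M21 transcripts, 5′ to 3′).
Col1a1: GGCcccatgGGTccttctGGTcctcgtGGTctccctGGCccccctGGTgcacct
Col1a2: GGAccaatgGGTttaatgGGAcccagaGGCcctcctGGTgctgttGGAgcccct
Col3a1: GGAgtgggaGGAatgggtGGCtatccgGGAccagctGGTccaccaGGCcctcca
Col5a1: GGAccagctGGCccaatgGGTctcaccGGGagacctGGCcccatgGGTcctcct
Col5a2: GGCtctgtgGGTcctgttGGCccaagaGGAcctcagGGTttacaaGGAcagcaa
Col5a3: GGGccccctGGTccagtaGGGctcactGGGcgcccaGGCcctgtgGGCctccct

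The uninterrupted repeat ran for 338 triplets in Col1a1, 339 in Col1a2, 344 in Col3a1, 338 in Col5a1, 339 in Col5a2 and 337 in Col5a3. Glycine codons ending in T made up 55.9% of the repeat in Col1a1 and 51.6% in Col1a2, against 25.2% in Col5a3, where codons ending in G reached 20.5%. Despite the shared pattern, no 50-base word was shared between the longest coding transcripts of any pair of the 6 chains. Words shared with other annotated genes were 1.67% of those of Col3a1 and 1.44% of those of Col5a1, and 0 in the other chains. The genes lie on 5 chromosomes (mm10, the same assembly as GRCm38, positions counted from 1). Col1a1 is at chromosome 11, 94936224 to 94953042, Col1a2 at chromosome 6, 4504814 to 4541544, Col5a1 at chromosome 2, 27886425 to 28039514, and Col5a3 at chromosome 9, 20770050 to 20815067. Col3a1 (chromosome 1, 45311538 to 45349706, plus strand) and Col5a2 (45374321 to 45503282, minus strand) are neighbours that converge, with 24614 bases and no annotated gene between them.

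The values are TPM (transcript abundance), in which counts are divided by gene length and scaled to 1 total per library. Reads recovered from TPM and exon length came to 14587544 to 18281942 per E18 library and 21130197 to 22626885 per E16 library. The sorted samples held RNA of other cells as well. Summed over the 12 erythroid markers, TPM ran from 11192 to 19224 at E18 and from 5609 to 7423 at E16, led by Hba-a1 with means of 8188 and 2618 TPM. Of that list Epor was lower in every E18 library (318 ± 35.1 TPM, against 414 ± 15.9 TPM at E16), and Klf1 and Gata1 overlapped between days. The other members were higher in every E18 library than in any E16 library. Over the 13 hepatocyte markers it ran from 393 to 1010 at E18 and from 2154 to 9099 at E16. Mesenchymal markers other than fibrillar collagens, 14 in all and among them Vim and Pdgfrb, summed to 586 to 1548 TPM at E18 and 84.3 to 191 TPM at E16. Tagln, which encodes the Sm22 protein whose promoter drives Cre, averaged 3.14 ± 0.258 TPM at E18 and 1.06 ± 0.408 TPM at E16, and Acta2, of smooth muscle, 159 ± 55.7 and 19.2 ± 14.5 TPM. The 9 endothelial markers summed to 18.5 to 26.0 TPM at E18 and 27.7 to 41.3 TPM at E16, mostly from Egfl7, with Pecam1 at 0.839 ± 0.361 and 0.487 ± 0.353 TPM. The 8 leukocyte and macrophage markers summed to 45.9 to 117 TPM at E18 and 43.0 to 57.7 TPM at E16, mostly from Cd68. Of that list Adgre1 and Itgam were at 0 in every library and Ptprc at 0.0331 ± 0.0304 TPM at E18 and 0.0613 ± 0.0712 TPM at E16 (SD, n = 3 each). Of 3 tested members 1 was called higher at a limma adjusted p under 0.05, beside 3.08% of all genes tested. It was Lyz2, with 7.23, 4.82 and 8.53 TPM at E18 (replicates A to C), against 0.445, 1.03 and 1.88 TPM at E16. Lyz2 was thus under 1 TPM in E16 replicate A. Csf1r and Cd68 overlapped between days and were not called. In such bulk samples, fewer cells of a type and less RNA per cell cannot be told apart.

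All 6 chains were higher at E18. Their TPM summed to 2498, 5402 and 2115 at E18 (replicates A to C), against 405, 491 and 743 at E16. As a share of all TPM that is 0.334% ± 0.180 at E18 and 0.0546% ± 0.0176 at E16 (SD, n = 3 each). The lowest E18 sum was above the highest E16 sum, the means stood 6.11-fold apart, and the exact permutation test gave p = 0.1 (2-sided), the smallest that 3 against 3 libraries allow. E18 replicate B was the highest library for every chain. Values of 3 libraries are given in the order A, B, C on both days.

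Col1a1, the chain of largest abundance in collagen I, had 1276, 2693 and 1079 TPM at E18 (replicates A to C), against 210.3, 238 and 399 TPM at E16. It ranked between 8 and 41 among 21995 protein-coding genes in the E18 libraries, and between 148 and 356 in the E16 libraries. Its partner Col1a2 had 411, 864 and 342 TPM at E18, against 61.1, 74.1 and 118 TPM at E16. For both genes the days did not overlap, and within E16 replicate C was the highest. The log2 fold change was 2.51 ± 0.40 for Col1a1 and 2.59 ± 0.39 for Col1a2 (SE; limma adjusted p = 0.0333 and 0.0317).

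Col3a1, which encodes the only chain of collagen III, had 510.1, 1268 and 396 TPM at E18 (replicates A to C), against 75.1, 92.0 and 138 TPM at E16. Its fold was the largest of the 6 on the log2(TPM + 1) scale at 2.68 ± 0.44 (SE; limma adjusted p = 0.0351), and so was its spread within E18, with a coefficient of variation of 65.4% (32.2% at E16). E18 replicate B stood 2.80 times above the mean of the other E18 libraries for Col3a1, against 2.29 for Col1a1 and 1.69 for Col5a3.

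Among the collagen V chains, Col5a1 had 228, 429 and 237 TPM at E18 (replicates A to C), against 45.6, 71.2 and 68.9 TPM at E16. It was the chain with the smallest p (log2 fold change 2.21 ± 0.29 SE; limma adjusted p = 0.0273). Col5a2 had 65.9, 137 and 56.1 TPM at E18, against 11.8, 14.9 and 18.0 TPM at E16 (2.37 ± 0.34; limma adjusted p = 0.0314). Neither gene's days overlapped. Exons of genes on the opposite strand cover 2.50% of the exon length of Col5a1, and the strand setting of the authors' counting is not given in the sources used here.

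Col5a3 was scarce. It had 6.82, 10.5 and 5.58 TPM at E18 (replicates A to C), against 0.796, 0.509 and 1.20 TPM at E16, and rested on 205, 326 and 210 recovered reads at E18 and 37, 23 and 53 at E16. Counting error alone gives 14.6 to 34.5 reads for the E16 replicate B value (95% exact Poisson interval), and such intervals cover counting error only. Its E18 mean was 9.13 times its E16 mean, while its log2 fold change on TPM + 1 was 2.21 ± 0.34 (SE; limma adjusted p = 0.0328), since the added 1 TPM exceeds most E16 values. Col5a3 passed the filter on low values through its E18 libraries, whereas the other 5 chains had at least 1 TPM in every library.

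**Figure D1:**
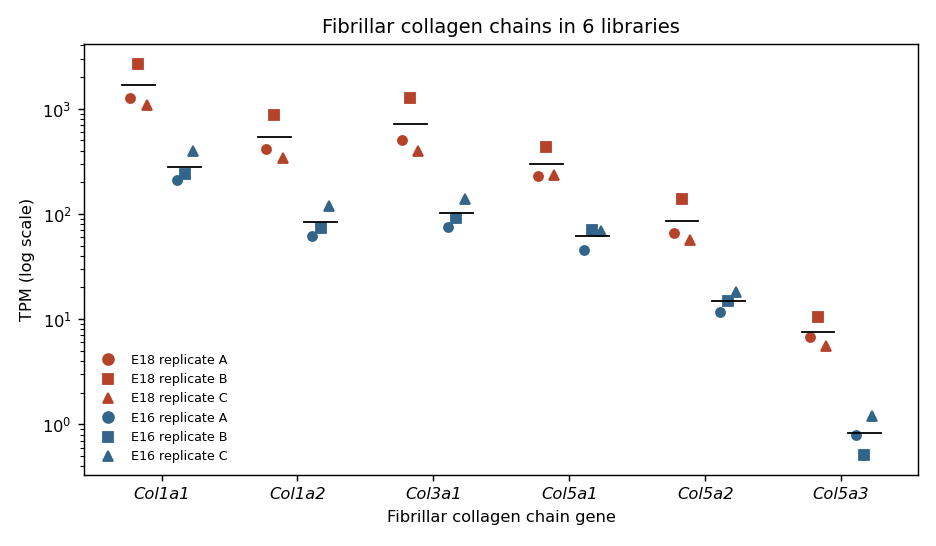
TPM of the 6 fibrillar collagen chains in each library on a log axis, with E18 (red) left of E16 (blue), 1 point per library and a bar at the mean of 3. Every E18 point lies above every E16 point of the same gene, from Col1a1 (1079 to 2693 TPM at E18, 210.3 to 399 TPM at E16) down to Col5a3 (5.58 to 10.5 and 0.509 to 1.20 TPM).

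Over all 17824 genes tested, limma called 3.08% higher and 0.387% lower at E18 at an adjusted p under 0.05, and 18.4% had all 3 E18 values above all 3 E16 values. Of the 6 chains, 6 were called higher and 6 had no overlap, Col5a3 included, which had under 1 TPM in E16 replicates A and B. Their median log2 fold change was 2.44, beside 0.07 for all genes tested, and 1.99% of all genes tested had a fold at or above that of the lowest chain. The calls rest on every library but 1. Leaving out E16 replicate A, B or C, or E18 replicate A or B, left 0 of 6 called, with smallest adjusted p values of 0.0893, 0.0644, 0.0584, 0.0925 and 0.0644, and leaving out E18 replicate C left 6. Without both B libraries 0 were called, and E18 means were 3.87-fold (Col1a1) to 6.21-fold (Col5a3) above E16 means, against 4.81-fold (Col5a1) to 9.13-fold (Col5a3) in all libraries.

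The order of the chains by TPM was the same in all 6 libraries. Col1a1 was above Col3a1, Col3a1 above Col1a2, Col5a1 above Col5a2, and Col5a2 above Col5a3 in 6 of 6 libraries, and Col1a2 above Col5a1 in 6 of 6. Between libraries of 1 day, the ranges of Col1a1 and Col3a1 overlapped at E18 and not at E16, those of Col3a1 and Col1a2 and of Col1a2 and Col5a1 overlapped on both days, and those of Col5a1, Col5a2 and Col5a3 did not overlap on either day. The place of Col1a2 depends on the length used. Its merged exons span 12426 bases, of which 6896 lie only in transcripts annotated as retained introns, whereas its longest coding transcript has 5348, a factor of 2.32, compared with 1.11 for Col1a1 and 1.76 for Col3a1. With reads per kb of the longest coding transcript, Col1a2 was above Col3a1 in 5 of 6 libraries, with 4213, 9177 and 4385 reads per kb at E18 (replicates A to C), where Col3a1 had 3972, 10225 and 3858.

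Chain ratios within a library do not depend on how libraries were scaled. For Col1a1 to Col1a2 the ratio of TPM was 3.11, 3.12 and 3.16 at E18 (replicates A to C), against 3.44, 3.21 and 3.37 at E16. It thus varied by little while both genes moved severalfold. The E18 values were all below the E16 values, a difference of −0.10 on the log2 scale. With reads per kb of the longest coding transcript, the same ratio was 1.48, 1.48 and 1.50 at E18, against 1.64, 1.53 and 1.61 at E16, so its level depends on the length and its difference between days does not.

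Relative to collagen I, collagen III was at 0.400, 0.471 and 0.367 of Col1a1 TPM at E18 (replicates A to C), against 0.357, 0.387 and 0.347 at E16, and the days overlapped. Col5a1 to Col5a2 stood at 3.60 ± 0.564 at E18 and 4.16 ± 0.543 at E16 (SD, n = 3 each), also with overlap. The 2 main collagen V chains together were 0.180 ± 0.0241 of the collagen I chains at E18 and 0.219 ± 0.0542 at E16 (SD, n = 3 each), with overlap and with E16 replicate B the highest library at 0.276. Without both B libraries the last difference was 0.01 in place of −0.26 on the log2 scale.

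The minor collagen V chain stood apart in its ratio. Col5a3 was 0.0300, 0.0244 and 0.0236 of Col5a1 TPM at E18 (replicates A to C), against 0.0174, 0.00714 and 0.0175 at E16. All E18 ratios were above all E16 ratios, by 0.996 on the log2 scale, or 0.607 without both B libraries. Adding 1 TPM to both genes, which is more than most E16 values of Col5a3, brought that difference to −0.0021. Of the 5 ratios compared, 2 did not overlap between days. Those 2, Col1a1 to Col1a2 and Col5a3 to Col5a1, each had p = 0.1 by the exact permutation test (2-sided) and p = 0.25 after Benjamini-Hochberg adjustment over the 5. The others had exact p of 0.2, 0.3 and 0.4.

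**Figure D2:**
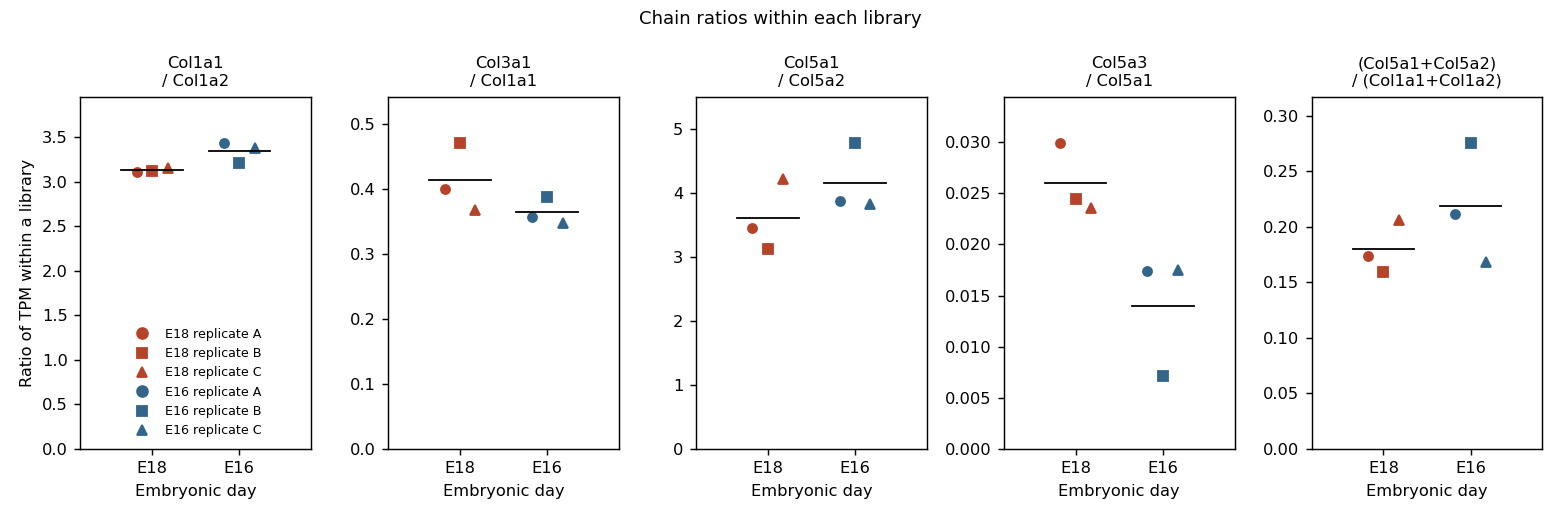
Ratios of TPM between chains within each library, with E18 (red) left of E16 (blue), 1 point per library, a bar at the mean of 3 and each axis starting at 0. Col1a1 to Col1a2 keeps to 3.11 to 3.44 over all libraries, while Col5a3 to Col5a1 ranges from 0.00714 in E16 replicate B to 0.0300 in E18 replicate A.

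The upstream sequence of 2 chains is shown because Col3a1 and Col5a1 were both higher at E18 while their promoters differ in base composition. RefSeq (GRCm38.p6) gave a window for 4 of the 6 genes. That of Col1a2 is not used, since RefSeq's start lies 804 bases inside the GENCODE gene given above. For the other 3, the 250 bases before the annotated start are used, and both annotations give the same start. Capitals mark matches to the sequence of the CCAAT box (CCAAT or ATTGG), the GC box (GGGCGG or CCGCCC) and the TATA box (TATAAA or TTTATA), each searched on both strands. Col3a1 is at chr1:45311288-45311537 and Col5a1 at chr2:27886175-27886424, both on the plus strand.
Col3a1: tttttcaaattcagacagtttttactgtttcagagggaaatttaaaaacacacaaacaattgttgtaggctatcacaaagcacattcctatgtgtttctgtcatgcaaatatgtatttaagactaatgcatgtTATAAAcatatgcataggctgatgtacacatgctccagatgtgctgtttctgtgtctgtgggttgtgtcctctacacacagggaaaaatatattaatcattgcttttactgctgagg
Col5a1: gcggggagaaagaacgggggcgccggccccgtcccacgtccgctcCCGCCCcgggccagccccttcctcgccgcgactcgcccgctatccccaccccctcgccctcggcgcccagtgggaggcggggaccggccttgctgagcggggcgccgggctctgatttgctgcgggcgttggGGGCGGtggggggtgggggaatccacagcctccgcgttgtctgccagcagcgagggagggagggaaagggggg

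A match says only that the sequence occurs, and whether it acts as a promoter element was not tested. The Col3a1 window held 1 match to the TATA box sequence, 117 bases before the start, and neither of the other motifs. That of Col5a1 held 2 GC boxes, and that of Col5a3 1 CCAAT box and 2 GC boxes. GC content was 35.2% for Col3a1, 76.4% for Col5a1 and 62.8% for Col5a3, beside a median of 52.4% over 32851 promoter windows. Of all those windows, 33.8% held a CCAAT box, 32.7% a GC box and 12.4% a TATA box.

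The chains were set beside markers of the cells that make them. Their summed TPM was 3.42 ± 0.223 times that of the mesenchymal marker list at E18 and 4.24 ± 0.487 times at E16 (SD, n = 3 each), lower in every E18 library. Over the 9 smooth muscle markers, led by Acta2, it was 8.96, 13.0 and 10.96 times at E18 (replicates A to C), against 19.7, 19.7 and 13.6 times at E16. Over the 10 portal fibroblast markers it was 9.76 ± 0.685 times at E18 and 16.1 ± 0.606 times at E16, also lower in every E18 library. Over the 10 stellate and pericyte markers the days overlapped, at 14.7 ± 1.59 times at E18 and 14.1 ± 1.90 times at E16.

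By the exact permutation test (2-sided) p was 0.1 for the first 3 of these lists, or 0.133 adjusted over the 4, and 0.8 for the stellate list. The difference was −0.31 on the log2 scale for the mesenchymal list, −0.68 for smooth muscle, −0.72 for portal fibroblasts and 0.06 for stellate cells. A sum is led by its most abundant members, among them elastin (Eln) in the portal list and collagen VI in the mesenchymal list. The collagen VI chains Col6a1, Col6a2 and Col6a3 averaged 196, 121 and 152 TPM at E18, where the mesenchymal sum averaged 974 TPM. At E16 they averaged 26.1, 16.1 and 15.0 TPM, where that sum averaged 132 TPM. The mesenchymal ratio thus sets collagens in part beside other collagens. When list medians of log2(TPM + 1) were compared instead, the portal difference turned to 0.04, the stellate one to −0.04, and the other 2 stayed negative at −0.17 and −0.56. So the chains and the summed markers of mesenchymal cells were higher together. E18 replicate B was the highest library for the mesenchymal, smooth muscle, stellate and portal lists as well. Of the 14 mesenchymal markers 11 were called higher. Ngfr was not, and it overlapped between days, with 5.94 TPM in E18 replicate C and 9.41 TPM in E16 replicate C. The 4 lists are not independent. Pdgfrb, Des, Ngfr and Lhx2 are on both the mesenchymal and the stellate list, and Thy1 is on both the mesenchymal and the portal list. The part of these marker levels in the chains' difference between days was not tested.

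**Figure D3:**
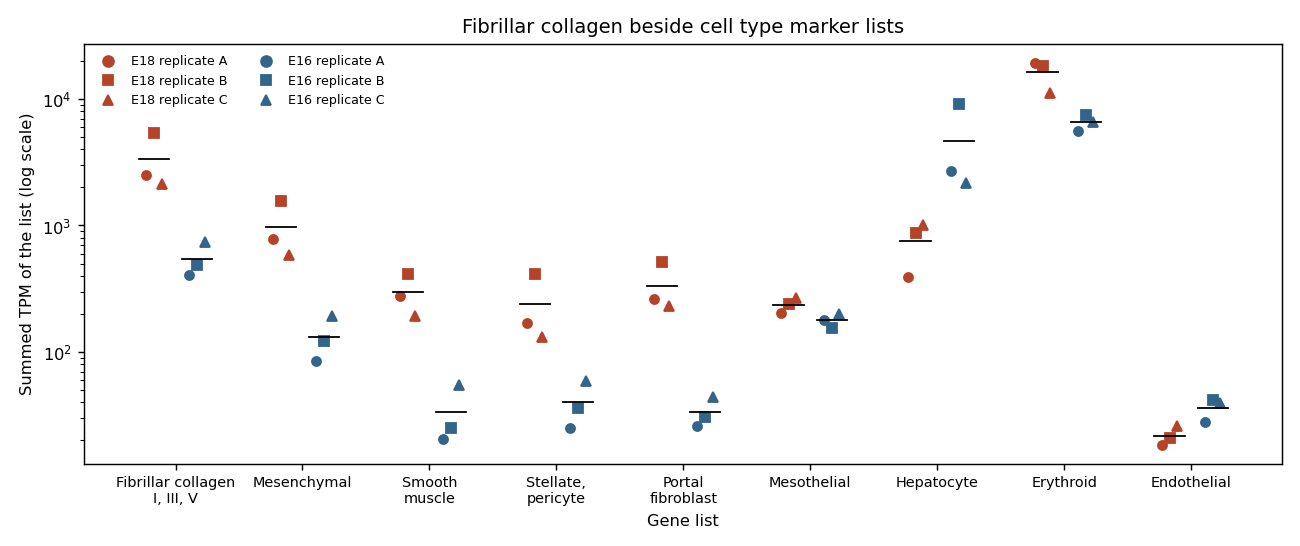
Summed TPM of the 6 fibrillar collagen chains and of 8 cell type marker lists in each library on a log axis, with E18 (red) left of E16 (blue), 1 point per library and a bar at the mean of 3. The collagen sum (2115 to 5402 at E18, 405 to 743 at E16) moves with the 4 lists of mesenchymal cell types, while the hepatocyte list is lower at E18 (393 to 1010, against 2154 to 9099 at E16). The erythroid (11192 to 19224, against 5609 to 7423) and mesothelial (202 to 269, against 155 to 199) sums are also higher in every E18 library. The mesothelial sum is led by Podxl, whose days overlap, while its other members are higher in every E18 library.

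Genes that act on these chains and, as 1 list, the other fibrillar collagens were followed in 8 lists. The lists were chosen with earlier results of these data known. Of 92 listed genes 82 were tested, and 33 were called higher and 0 lower, where 3.08% of all genes tested were called higher. All 3 E18 values were above all 3 E16 values for 61 of the 82, beside 18.4% of all genes tested. In what follows, rose means called higher. Leaving out 5 genes with fewer than 3 E16 libraries at 1 TPM gives 30 of 77. Without E18 replicate C 25 were called, and without any other single library 0 to 2. The other fibrillar collagens, mostly known from cartilage, were low and none of the 4 tested was called. Each of these 4 was nevertheless higher in every E18 library than in any E16 library. Col27a1 had 8.85 ± 3.50 TPM at E18 and 2.69 ± 0.335 TPM at E16 (limma adjusted p = 0.0637), Col11a2 5.84 ± 2.43 and 2.75 ± 0.766 TPM, and Col11a1 4.61 ± 2.47 and 2.01 ± 0.714 TPM (SD, n = 3 each).

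Enzymes and chaperones that modify and fold the chains inside the cell numbered 20 among the genes tested, of which 4 rose and 16 did not pass, with a median of 0.87 (log2). Plod2, a lysyl hydroxylase, had 9.54, 14.8 and 8.19 TPM at E18, against 1.66, 2.48 and 2.15 TPM at E16 (limma adjusted p = 0.0344). P3h4, which acts with P3h3 in a complex of the endoplasmic reticulum, rose by 1.92 ± 0.32 and Fkbp10, a collagen chaperone of the endoplasmic reticulum, by 2.08 ± 0.37 (log2 ± SE). P3h3 was the remaining one. P3h3 and the next 3 genes are named after their values were seen. P4hb, a prolyl hydroxylase subunit that also acts as a disulfide isomerase, had 257 ± 32.3 TPM at E18 and 293 ± 40.2 TPM at E16, and the cyclophilin Ppib 32.2 ± 2.90 and 36.0 ± 6.04 TPM. The collagen-specific chaperone Serpinh1 had 238 ± 133 and 58.3 ± 24.8 TPM (SD, n = 3 each) and did not pass (limma adjusted p = 0.0527). Serpinh1, P4ha1, P4ha2, P4ha3, Plod1, P3h1, P3h2 and Fkbp14 did not pass but were higher in every E18 library than in any E16 library. So were 18.4% of all genes tested. The other members that did not pass overlapped between days.

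Outside the cell, procollagen is trimmed and cross-linked. Of 5 tested genes for propeptide removal 3 rose, with a median log2 fold change of 2.36. Adamts2, which cuts the amino-terminal propeptide, had 40.1, 91.1 and 30.9 TPM at E18 (replicates A to C), against 3.37, 4.69 and 6.60 TPM at E16 (3.11 ± 0.41, log2 ± SE). Pcolce, which speeds removal of the carboxy-terminal propeptide, rose by 2.36 ± 0.38. Adamts14, related to Adamts2, rose by 2.57 ± 0.45, with 1 E16 library under 1 TPM. Adamts3, of the same enzyme group and named after its values were seen, had 8.58 ± 1.82 TPM at E18 and 13.9 ± 1.71 TPM at E16 and did not pass (limma adjusted p = 0.163). Among 5 cross-linking enzymes 3 rose: Lox, Loxl1 and Loxl2, by 2.52 ± 0.36, 2.92 ± 0.47 and 2.21 ± 0.36. Loxl3 and Loxl4 did not pass. Their days did not overlap either, with E18 the higher, as was so for 18.4% of all genes tested.

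Partners of the finished fibril moved in the same direction. Of 15 fibril-associated collagens, proteoglycans and adaptors 12 rose, and the median log2 fold change was 2.52. Dpt, which binds decorin and collagen, had 32.2 ± 13.3 TPM at E18 and 1.34 ± 0.0617 TPM at E16, Tnxb, a tenascin, 34.8 ± 19.3 and 2.06 ± 0.153 TPM, and Col12a1, which lies on the fibril surface, 28.4 ± 12.9 and 3.95 ± 1.22 TPM (SD, n = 3 each; limma adjusted p = 0.0153, 0.0272 and 0.0307). Of 7 tested receptors 3 rose. They were the collagen-binding receptor kinases Ddr1 (1.80 ± 0.29) and Ddr2 (2.41 ± 0.42) and the uptake receptor Mrc2 (2.33 ± 0.41, log2 ± SE). The shared integrin subunit Itgb1, named after its values were seen, had 404 ± 33.2 TPM at E18 and 349 ± 24.6 TPM at E16 (limma adjusted p = 0.463).

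Of 7 tested genes of collagen breakdown and its control 6 rose, with a median log2 fold change of 2.29. Mmp2, a gelatinase, had 110 ± 54.1 TPM at E18 and 9.91 ± 4.14 TPM at E16 (SD, n = 3 each; limma adjusted p = 0.0273). The inhibitor Timp2 rose by 2.88 ± 0.39 (log2 ± SE). Its relative Timp1 had 3.57, 16.8 and 11.4 TPM at E18 and was listed at 0, 0 and 0.174 TPM at E16, so it was tested only because of its E18 values. Without Timp1 and Fap, which likewise reached 1 TPM at E18 alone, 5 of 5 rose. Of 19 regulators of collagen transcription 2 were called, both higher, beside 3.08% of all genes tested, and the median was 0.22. Tgfb2, a TGF-beta ligand, rose by 1.90 ± 0.37 (log2 ± SE). Ccn2, a TGF-beta target, had 11.8, 19.3 and 7.15 TPM at E18, against 0.256, 0.368 and 0.594 TPM at E16, and was also tested only because of its E18 values, which leaves 1 of 18 without it. Tgfb3 had 20.8 ± 7.25 TPM at E18 and 4.98 ± 3.16 TPM at E16 and did not pass (limma adjusted p = 0.0520). Tgfb2, Ccn2, Tgfb3, Tgfbr2, Smad4, Smad7, Creb3l1 and Mrtfa were higher in every E18 library than in any E16 library. Smad3 and Srf were lower in every E18 library and were not called. The other regulators overlapped between days.

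**Figure D4:**
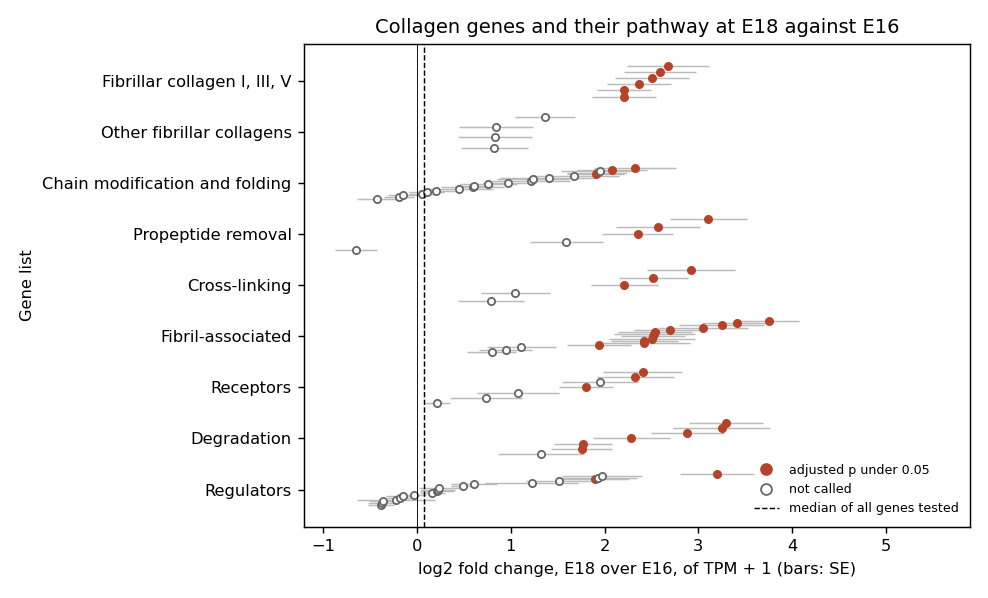
Log2 fold change of TPM + 1, E18 over E16, with its SE for each tested gene of the fibrillar collagen set and of 8 pathway lists, where filled points passed at adjusted p under 0.05 and the dashed line marks the median of all genes tested. The 6 chains lie between 2.21 and 2.68, and genes of fibril association, propeptide removal and breakdown have list medians of 2.52, 2.36 and 2.29, against 0.87 for chain modification and 0.22 for regulators.

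The 6 chains followed each other closely over the 6 libraries. Pearson's r of log2(TPM + 1) between pairs of chains ran from 0.970 to 0.9997 with a median of 0.986, over 15 pairs. Among 11838 genes with a mean of at least 5 TPM, those most like the mean of the 6 chains were Lrrc32, Adamts2, Col12a1, Ahnak, Col6a3, Kctd17, Lox and Frem1, with r from 0.9987 to 0.9995. That mean is over both days. Lrrc32, Adamts2, Col12a1, Kctd17 and Frem1 had E16 means under 5 TPM and passed through their E18 values. Lrrc32, which holds latent TGF-beta at the cell surface, had 15.4, 38.7 and 14.2 TPM at E18 (replicates A to C), against 0.906, 1.45 and 2.64 TPM at E16. It was highest in replicate B at E18 and in replicate C at E16, as were the chains other than Col5a1, whose highest E16 value was in replicate B. Col6a3, a chain of collagen VI, had 120, 250 and 86.5 TPM at E18, against 10.4, 13.8 and 20.8 TPM at E16. Col6a3 is also on the mesenchymal marker list, and Dpt, Dcn and Lum are on both a marker and a fibril list. These correlations are a description over 6 libraries that share the difference between days and the high E18 replicate B. Lrrc32 and the others were picked by this correlation, so their match to the chains follows from the choice.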

How the data were processed

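RNA of eYFP-positive fetal liver cells was sequenced from stranded total RNA libraries, per the labels' protocols. The authors deposited TPM for 54532 genes in 6 columns. The submitters' processing notes list HTSeq 0.5.4p3, Bowtie, the build mm10, HISAT2 2.1.0 and FastQC 0.11.7 with no order. How TPM was computed, from which annotation and with which strand setting, is not given in these sources. Symbols covered 54409 identifiers. TPM multiplied by merged exon length (GENCODE M21) gave whole reads within 0.05 for 96.8% to 97.1% of values above 0, and these were used as recovered reads. A gene of 1 kb at 1 TPM rests on 4.41 to 6.83 reads.

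Testing kept genes that reached 1 TPM in 3 or more of the 6 libraries, and used limma 3.58.1 (R 4.3.3) on log2(TPM + 1), with intensity trend and Benjamini-Hochberg adjustment over all 17824 genes, 2-sided. This scale understates the change of low genes. Sums and ratios per library were compared by exact permutation (SciPy 1.17.1). The fit was tested on simulated data, from which no result is given or used here. The members, lists and tests were chosen with earlier results of these data known. Named genes are the chains, up to 3 members per pathway list with the smallest p, the 8 genes most like the chains, predicted models left out, and defining markers. P3h3, P4hb, Ppib, Serpinh1, Adamts3, Itgb1, Fap, Egfl7, Cd68 and Lyz2 were added after their values were seen. So were Csf1r, Hba-a1, Epor, Klf1, Gata1, Loxl3, Loxl4 and Podxl. P4ha1, P4ha2, P4ha3, Plod1, P3h1, P3h2 and Fkbp14 were added likewise. The same holds for Tgfbr2, Smad3, Smad4, Smad7, Creb3l1, Mrtfa, Srf, Col6a1, Col6a2 and Ngfr. Tagln, Adgre1, Itgam and Eln are also named outside these rules. Dcn, Lum, Des, Lhx2 and Thy1 are named only as members that lists share. Alternatives were pseudocounts of 0.1 and 5, filters, scalings, trend, weights, the letter as a block, left-out libraries, voom on recovered reads and transcript length, the last added after seeing the data, as was leaving out both B libraries for the sums and ratios. Figures used Matplotlib 3.10.9.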

Additional observations from a re-analysis of the deposited data

How the results depend on the processing

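The log2 fold changes of the 6 chains stayed positive under all 19 alternatives tried, between 1.10 and 3.17, and 48 of 113 values no longer passed the threshold. All chains tested stayed called with other pseudocounts, scalings, no trend, array weights, voom on recovered reads and the filter on all libraries, which leaves 5 chains. The calls fell to 0 of 6 without a filter on low values (smallest adjusted p = 0.0778) and without both B libraries (0.113), and ran from 0 to 6 when single libraries were left out. With the letter as a replicate block 0 of 6 chains and 0 of 33 pathway genes were called. The letters are not said to pair libraries, and same-letter libraries deviated from their day means with r of 0.102, −0.139 and −0.117. The pathway count of 33 was 0 without a filter and without both B libraries, 53 with array weights, and 0 to 25 when single libraries were left out. Over all genes the count of 618 ran from 0 to 664 without single libraries and was 0 without a filter, with the block or without both B libraries, with 4571, 3195 and 2846 genes at an unadjusted p under 0.05. It was 347 with a pseudocount of 5, 399 with quantile normalization, 1069 without Gm26917, mitochondrial and small RNA genes, 1446 with voom and 4316 with array weights. The share of higher calls, 549 of 618, was 314 of 399 with quantile normalization, which moved the all-gene median (log2) to −0.08 in place of 0.07, 818 of 1069 without the genes above and 2795 of 4316 with array weights. Among ratios, signs turned for Col5a3 to Col5a1 with 1 TPM added (−0.0021), for collagen V to collagen I without both B libraries (0.0064), and, with list medians, for the portal (0.0422) and stellate (−0.0450) lists; the stellate value ran from −0.0199 to 0.165 without single libraries. Apart from the added 1 TPM, which exceeds most E16 values of Col5a3, the cause was not tested. The exact tests cannot pass 0.05 with 3 libraries a day, so they say nothing about stability. Col5a3 rests on 23 to 53 recovered reads at E16.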
